A study of Arabidopsis thaliana with 12 samples.

Results

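The 46 loci described here were raised by indole-3-butyric acid (IBA) both in roots of the triple mutant ibr1ibr3ibr10 and in roots of the wild type Col-0. They were chosen by the group means themselves, out of 11798 measured genes that the annotation names by a bare locus code alone and 13350 measured genes in all. A locus was selected where IBA raised its group mean by at least 0.6 on the log2 scale, about 1.52-fold, in the mutant and in Col-0 alike. The 2 genotypes had to lie within 0.4 log2 units of each other on the control medium, and the highest group mean had to reach 4. AT1G14130 and AT1G14120 were left out by the same rule.

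The study measured transcripts in root tip segments of Arabidopsis thaliana seedlings on Affymetrix ATH1 arrays, which carry short probes for most of the annotated genes. The 4 groups were ibr1ibr3ibr10 roots on 10 µM IBA, ibr1ibr3ibr10 roots on DMSO (the solvent of the hormone), Col-0 roots on 10 µM IBA and Col-0 roots on DMSO, with 3 arrays each. All seedlings were taken 3 days after germination, the mutant being in the Col-0 background with its alleles not stated in the labels, and were kept for 6 h on the fresh medium before segments of about 4 mm were cut. Each array held RNA of at least 120 pooled root tips, and the labels call the replicates independent. The titles of the DMSO samples say 0 h and those of the mutant samples say ibr3 alone, whereas their other labels say 6 h and the triple mutant. The reading of 6 h and the triple mutant was used. If the titles held for the time, each change from DMSO to IBA would also contain 6 h on the fresh medium, in either genotype. This was not tested. Raised by IBA therefore means here a higher level on the IBA arrays than on the DMSO arrays of the same genotype. In the annotation used here no probe set names IBR1, IBR3 or IBR10 alone, so the mutant alleles could not be checked with it. It names no gene for 8730 probe sets, and a gene counts as measured here where a probe set names it alone.

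IBA is a storage form of auxin with a longer side chain than the active hormone indole-3-acetic acid (IAA). Peroxisomes shorten that chain by steps like those of fatty acid beta-oxidation, and IBR1, IBR3 and IBR10 are peroxisomal enzymes assigned to this conversion. Plants that lack them respond poorly to IBA but still respond to IAA, so genes of the auxin response serve as a readout of how much IBA has been converted. The comparison here asks how large, and how alike in the 2 genotypes, the responses of loci raised by IBA in both were.

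Levels are given in log2 units as deposited and spanned 1.4015 to 13.445. Replicate arrays of a group correlated at 0.995 to 0.998 over the 22746 probe sets tested. The probe sets for bacterial poly-A control transcripts averaged 4.96 to 5.51 on the Col-0 IBA arrays and 4.76 to 5.02 on the other 9. Such transcripts are meant to be spiked into RNA before amplification, and whether they were added here was not checked. Only Col-0 IBA replicates 1 and 2, at 5.31 and 5.51, lay above the other arrays, and replicate 3 was within their range. Scaling every array to these controls moved the median change of all probe sets to -0.48 in Col-0 on IBA, against -0.04 as deposited, and to 0.08 in the mutant, against -0.01. Of the calls in the mutant response 58.6% were rises as deposited and 84.3% with that scaling; in the Col-0 response the shares were 51.6% and 4.25%, or 34.7% with the arrays centred on their medians. For the difference of responses the share of calls higher in the mutant was 45.5% as deposited, 57.1% with median centring and 98.0% with the control transcripts. Changes below are therefore set against most other transcripts. Relative to the median of all probe sets, the members' median rise was 0.88 in the mutant and 0.96 in Col-0. Both scalings shift whole arrays and so cannot change these values. With quantile normalization, which can, they were 0.89 in the mutant and 0.94 in Col-0.

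The tissue label could not be settled from the few markers measured, since signals of different probe sets are not comparable. Of 17 root markers listed, the root hair expansin genes EXPA7 and EXPA18 were measured, with mean signals of 8.22 and 8.32. Of 9 green shoot markers only RCA, which encodes Rubisco activase, was measured, with a mean signal of 5.86. The other markers may still have probe sets that the annotation does not name for them alone. The RCA values were 6.34, 6.20 and 6.57 in mutant roots on IBA, 5.76, 5.78 and 5.69 in mutant roots on DMSO, 6.23, 6.09 and 6.28 in Col-0 roots on IBA and 5.12, 5.29 and 4.93 in Col-0 roots on DMSO. RCA rose by 0.63 (SE 0.11) in the mutant and 1.08 (SE 0.11) in Col-0 (limma adjusted p = 0.00223 and 6.15e-06), so this marker moved in the same direction as the members, and its part in their rise was not tested. The change on IBA in the mutant was -0.60 for EXPA18 (SE 0.09, limma adjusted p = 0.000793) and -0.26 for EXPA7 (SE 0.07, limma adjusted p = 0.0389), and the EXPA7 call ended with a replicate block and in some leave-one-out fits. Both calls ended with the arrays scaled to the control transcripts. In whole root tips, fewer cells of a type and less RNA per cell cannot be told apart.

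Over the 46 loci, the IBA response in the mutant had a median of 0.87, from 0.61 to 1.47, and the response in Col-0 had a median of 0.92, from 0.63 to 2.28. Over all 13350 genes the medians were -0.02 in the mutant and -0.05 in Col-0. The response was called at an adjusted p under 0.05 for 46 loci in the mutant, where 5.49% of all probe sets were called higher, and for 45 in Col-0, where 12.1% were. For 45 loci it was called in both genotypes, beside 4.22% of all probe sets. These counts restate the choice, since the same means chose the loci. Every IBA array lay above every DMSO array in both genotypes for 45 loci, beside 7.75% of all probe sets. The exception to both counts was AT4G39675, which has no role given here, with 6.71, 6.67 and 6.54 in mutant roots on IBA, 5.65, 5.14 and 6.04 in mutant roots on DMSO, 5.96, 5.54 and 6.33 in Col-0 roots on IBA and 5.68, 4.78 and 5.37 in Col-0 roots on DMSO. Its Col-0 groups overlapped, and its response was 1.03 (SE 0.24) in the mutant and 0.66 (SE 0.24) in Col-0, where the adjusted p was 0.0658.

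**Figure D1:**
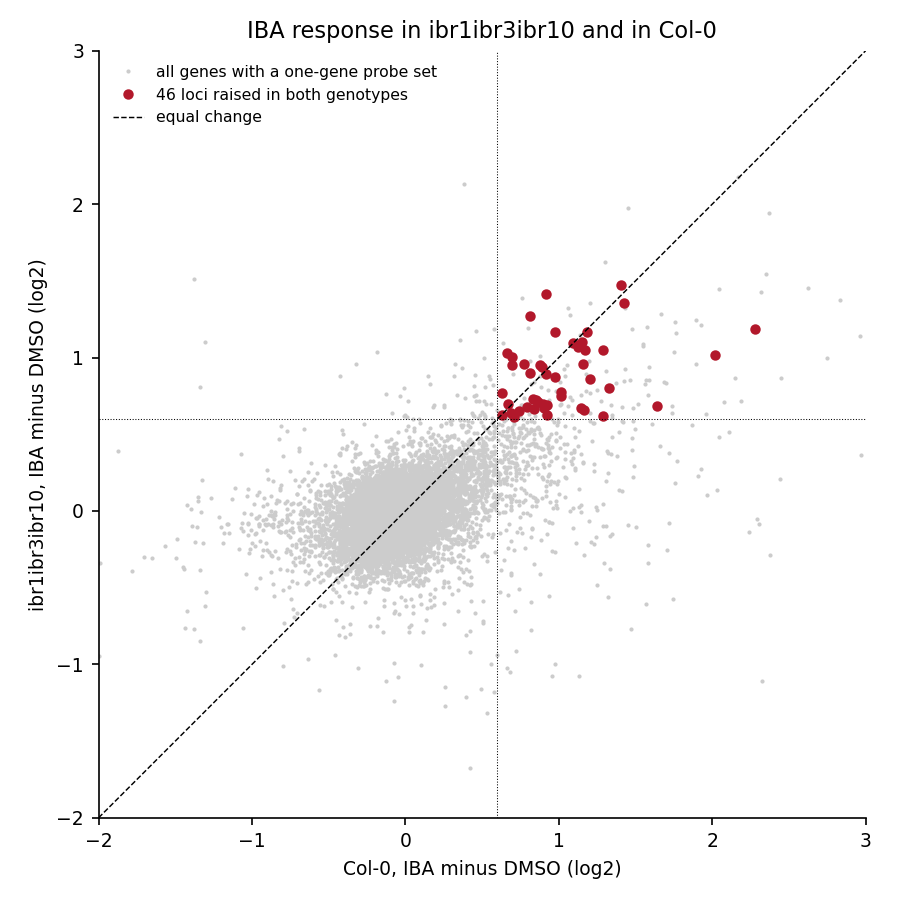
Change on IBA in Col-0 (horizontal axis, log2) against the change in ibr1ibr3ibr10 (vertical axis, log2) for every gene with a probe set of its own (grey) and for the 46 loci (red). The dotted lines mark the 0.6 threshold, the dashed line marks equal changes, and 21 genes lie outside the plotted range. Most red points lie close to the dashed line, with 33 on its Col-0 side and 13 on its mutant side.

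The ratio of the mutant response to the Col-0 response had a median of 0.89, with a lowest value of 0.42 and a highest of 1.56. It lay between 0.75 and 1.33 for 30 loci, was under 0.6 for 6 and was over 1 for 13. At 10 loci both responses reached 1 log2 unit, and at 22 both stayed under 1. Across the 46 loci the 2 responses correlated with a Pearson's r of 0.35 and a Spearman's rho of 0.34; this is a description over loci that share the same 12 arrays. The mean signal over the 12 arrays had a median of 5.80 over the loci, from 3.71 to 10.37, and of 4.84 over all genes, where a minimum level was part of the choice. At 1 locus, AT1G51890, a group mean lay under 3.24, the 30th percentile of the probe set means. At 9 loci both DMSO means lay under 4, among them AT5G66780, AT5G43450 and AT4G27590, whose differences of responses are given below.

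The arrays differed in how strongly they showed the rise. The median over the loci of the value minus the DMSO mean of the same genotype was 0.85, 0.84 and 0.88 on the mutant IBA arrays, and 0.84, 0.83 and 1.16 on the Col-0 IBA arrays. Col-0 IBA replicate 3 was the highest of its group at 34 loci, whereas the highest mutant IBA array was spread over replicates 1, 2 and 3 at 18, 9 and 19 loci. The median over the loci of the SD within a group was 0.09 in mutant roots on IBA, 0.14 in mutant roots on DMSO, 0.21 in Col-0 roots on IBA and 0.15 in Col-0 roots on DMSO. Over all genes the same medians were 0.10, 0.09, 0.12 and 0.10.

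**Figure D2:**
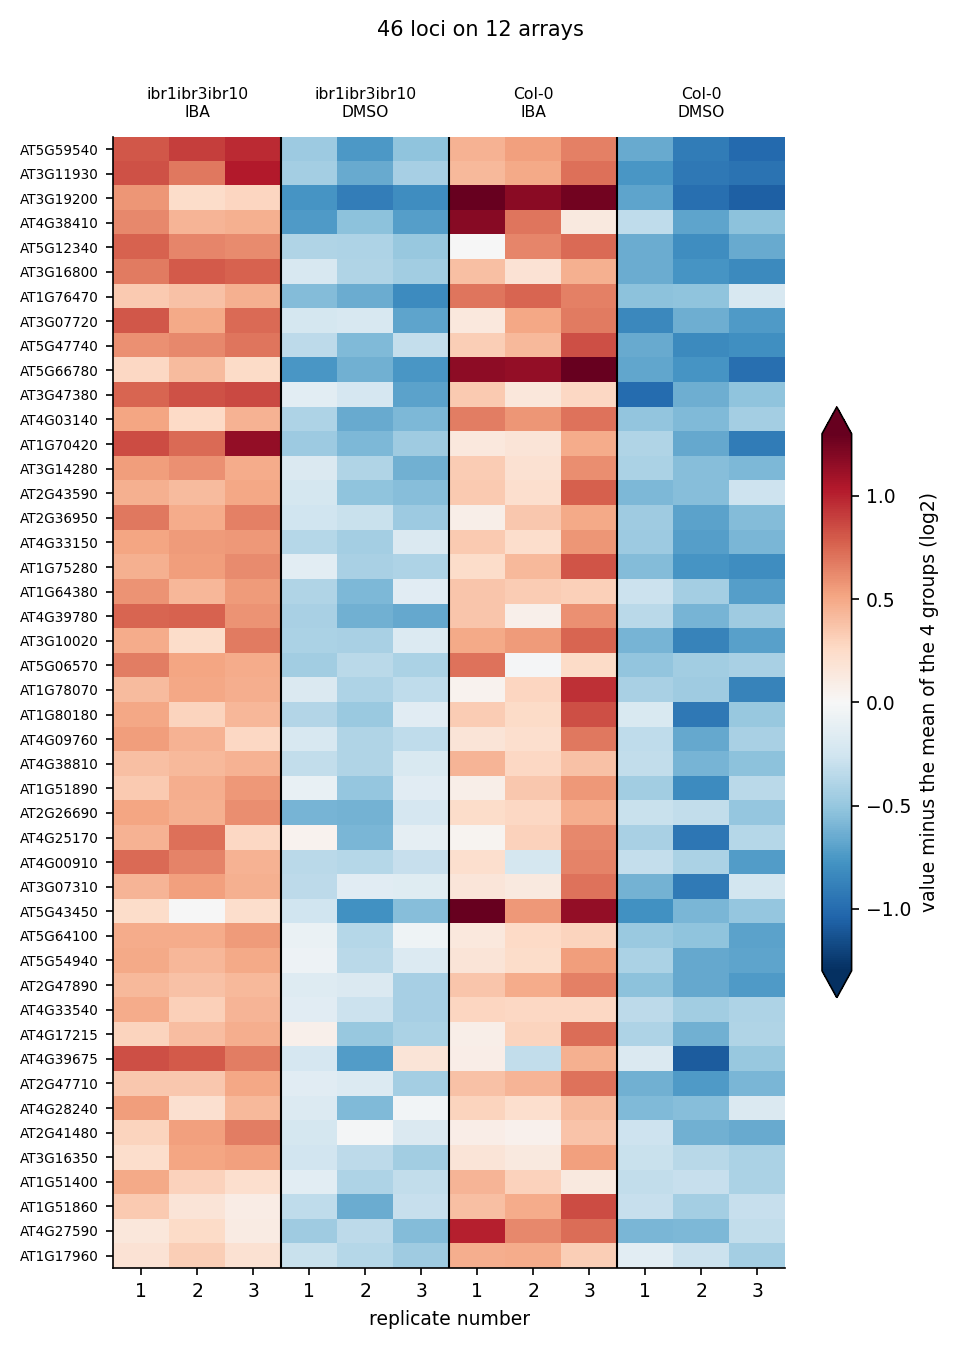
Value of each of the 46 loci (rows, ordered by the smaller of their 2 responses) on each of the 12 arrays (columns, by group and replicate number), as the difference from the mean of the 4 groups in log2 units. IBA columns are mostly red and DMSO columns mostly blue in both genotypes, and Col-0 IBA replicate 3 is the darkest red of its group in most rows.

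The annotation used here gave a name beyond a locus or clone code to 4 of the 46 loci. Protein families are stated below as background for 33 loci whose family is well known, and they were grouped after the values had been seen, so no group is tested. The largest responses shared by both genotypes belonged to a putative oxygenase and a universal stress protein. AT5G59540 belongs to the 2-oxoglutarate and iron dependent oxygenases, enzymes that oxidise many small molecules and hormones, and it had the highest smaller-of-2 response. Its values were 7.00, 7.09 and 7.16 in mutant roots on IBA, 5.72, 5.45 and 5.67 in mutant roots on DMSO, 6.64, 6.72 and 6.85 in Col-0 roots on IBA and 5.54, 5.28 and 5.19 in Col-0 roots on DMSO. The IBA and DMSO arrays did not overlap in either genotype, with a rise of 1.47 (SE 0.10) in the mutant and 1.403 (SE 0.10) in Col-0, or 2.78-fold and 2.64-fold.

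Of the 4 loci for stress proteins, AT3G11930 encodes a universal stress protein, a family of small nucleotide-binding proteins. AT3G11930 had 8.39, 8.24 and 8.59 in mutant roots on IBA, 7.12, 6.91 and 7.13 in mutant roots on DMSO, 7.98, 8.05 and 8.28 in Col-0 roots on IBA and 6.81, 6.63 and 6.60 in Col-0 roots on DMSO. It rose by 1.36 (SE 0.11) in the mutant and 1.43 (SE 0.11) in Col-0, the mutant arrays lying above the Col-0 arrays on DMSO and overlapping with them on IBA. AT4G38410 encodes a dehydrin, a hydrophilic protein that accumulates in cells that lose water. It had 5.84, 5.66 and 5.69 in mutant roots on IBA, 4.49, 4.69 and 4.51 in mutant roots on DMSO, 6.41, 5.92 and 5.35 in Col-0 roots on IBA and 4.90, 4.54 and 4.69 in Col-0 roots on DMSO. The Col-0 IBA arrays were widely spread, and the rise was 1.17 (SE 0.19) in the mutant and 1.19 (SE 0.19) in Col-0. AT2G47710, the other universal stress protein, and AT4G28240, of the wound-responsive family, had smaller mutant responses of 0.66 and 0.65, against 1.16 and 0.74 in Col-0.

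**Figure D3:**
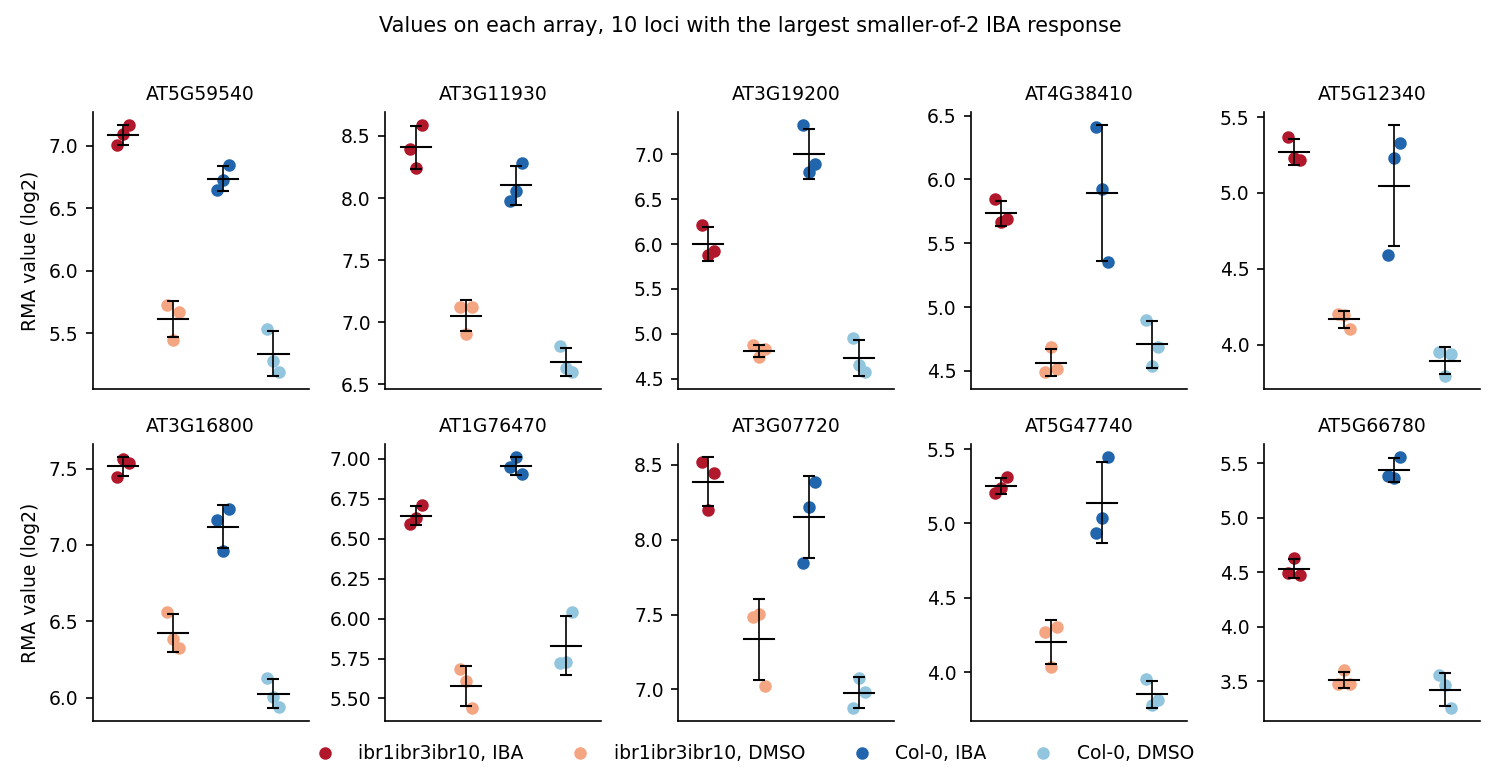
Values (log2) on the single arrays of the 10 loci with the highest smaller-of-2 IBA response; each point is an array, bars are the mean and SD of 3 arrays, and the groups run from ibr1ibr3ibr10 on IBA at the left to Col-0 on DMSO at the right. The vertical axes do not start at 0 and differ between panels. IBA points lie above DMSO points of the same genotype in every panel, and AT3G19200 and AT5G66780 are higher in Col-0 than in ibr1ibr3ibr10 on IBA.

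The 8 loci for oxidoreductases had a median response of 0.87 in the mutant, from 0.64 to 1.47, and of 1.14 in Col-0, from 0.69 to 1.64. AT1G76470, of the NAD(P)-binding reductases, had 6.60, 6.63 and 6.71 in mutant roots on IBA, 5.68, 5.61 and 5.44 in mutant roots on DMSO, 6.95, 7.01 and 6.90 in Col-0 roots on IBA and 5.72, 5.73 and 6.04 in Col-0 roots on DMSO. It was the member furthest below Col-0 on DMSO and rose by 1.07 (SE 0.10) in the mutant and 1.13 (SE 0.10) in Col-0. AT4G03140, a short-chain dehydrogenase/reductase, rose by 0.96 (SE 0.09) in the mutant and 1.16 (SE 0.09) in Col-0. AT4G33150 encodes LKR/SDH, the bifunctional enzyme that opens lysine breakdown, and had 7.62, 7.67 and 7.67 in mutant roots on IBA, 6.74, 6.67 and 6.92 in mutant roots on DMSO, 7.45, 7.34 and 7.68 in Col-0 roots on IBA and 6.64, 6.39 and 6.51 in Col-0 roots on DMSO. Its mutant IBA arrays lay close together, and it rose by 0.88 (SE 0.10) in the mutant and 0.98 (SE 0.10) in Col-0.

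Peroxidases of class III act in the cell wall and on hydrogen peroxide. AT5G64100, of that family, had the highest mean signal of the members, 10.37, a signal that does not rank transcripts between probe sets, with 10.85, 10.85 and 10.93 in mutant roots on IBA, 10.29, 10.00 and 10.31 in mutant roots on DMSO, 10.50, 10.63 and 10.66 in Col-0 roots on IBA and 9.89, 9.85 and 9.67 in Col-0 roots on DMSO. It rose by 0.68 (SE 0.09) in the mutant and 0.79 (SE 0.09) in Col-0. PRX25 (AT2G41480), of the same family, with a mean signal of 4.56, rose by 0.64 (SE 0.13) in the mutant and 0.69 (SE 0.13) in Col-0. P3 (AT1G75280), of the isoflavone reductase-like proteins, had 8.96, 9.04 and 9.10 in mutant roots on IBA, 8.36, 8.07 and 8.09 in mutant roots on DMSO, 8.73, 8.91 and 9.31 in Col-0 roots on IBA and 7.93, 7.73 and 7.69 in Col-0 roots on DMSO. Its rise was 0.86 (SE 0.13) in the mutant and 1.21 (SE 0.13) in Col-0, and Col-0 IBA replicate 3 was the highest of all 12 arrays.

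The 7 loci for other enzymes and wall proteins had a median response of 0.89 in the mutant and 0.83 in Col-0. AT3G07720, a protein of kelch repeats, had 8.52, 8.20 and 8.45 in mutant roots on IBA, 7.48, 7.50 and 7.02 in mutant roots on DMSO, 7.85, 8.22 and 8.38 in Col-0 roots on IBA and 6.87, 7.08 and 6.98 in Col-0 roots on DMSO. Its rise was 1.05 (SE 0.15) in the mutant and 1.17 (SE 0.15) in Col-0. AT2G43590, of the chitinases, which cut the wall polymer of fungi, had 8.92 ± 0.05 in mutant roots on IBA, 8.03 ± 0.18 in mutant roots on DMSO, 8.91 ± 0.29 in Col-0 roots on IBA and 8.00 ± 0.18 in Col-0 roots on DMSO (SD, n = 3 each). The corresponding rise was 0.89 (SE 0.14) in the mutant and 0.91 (SE 0.14) in Col-0. AT3G47380 belongs to the inhibitors of invertases and pectin methylesterases, proteins that restrain wall and sugar enzymes, and rose by 1.17 (SE 0.14) in the mutant and 0.97 (SE 0.14) in Col-0. AT4G33540, of the metallo-beta-lactamase fold, had Col-0 IBA arrays at 8.52, 8.51 and 8.51, the smallest spread of any member in that group, and rose by 0.70 (SE 0.08) in the mutant and 0.67 (SE 0.08) in Col-0. The smallest mutant response of these 7 loci was that of AT1G17960, a threonyl-tRNA synthetase homologue, with 0.61 in the mutant and 0.71 in Col-0.

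Signalling and gene control took 10 loci, with a median response of 0.75 in the mutant and 0.89 in Col-0. AT3G16800 encodes a protein phosphatase of type 2C, a class that removes phosphate from kinases and their targets. It had 7.44, 7.56 and 7.54 in mutant roots on IBA, 6.56, 6.38 and 6.32 in mutant roots on DMSO, 7.16, 6.96 and 7.24 in Col-0 roots on IBA and 6.13, 6.01 and 5.94 in Col-0 roots on DMSO. The rise was nearly the same in both genotypes, 1.09 (SE 0.09) in the mutant and 1.09 (SE 0.09) in Col-0, and the mutant arrays were higher on both media. AT4G39780 and AT1G64380 encode transcription factors of the AP2/ERF family, many of which act in stress and ethylene responses. AT4G39780 had 5.56, 5.57 and 5.38 in mutant roots on IBA, 4.38, 4.18 and 4.14 in mutant roots on DMSO, 5.16, 4.86 and 5.39 in Col-0 roots on IBA and 4.45, 4.20 and 4.33 in Col-0 roots on DMSO. It rose by 1.27 (SE 0.12) in the mutant and 0.81 (SE 0.12) in Col-0, and AT1G64380 rose by 0.90 (SE 0.12) in the mutant and 0.81 (SE 0.12) in Col-0. The leucine-rich repeat receptor kinases AT1G51860 and AT1G51890 rose by 0.62 in the mutant and 0.93 in Col-0 and by 0.71 in the mutant and 0.87 in Col-0. AT5G54940, of the SUI1 family of translation initiation factors, had a mean signal of 8.42 and rose by 0.67 (SE 0.11) in the mutant and 0.90 (SE 0.11) in Col-0. AT4G38810 (EF-hand calcium binding), AT1G78070 (WD40 repeats) and AT3G16350 (MYB-like) had mutant responses of 0.72, 0.77 and 0.77 against 0.85, 1.01 and 0.63 in Col-0.

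Among 4 loci for transport and metal binding, NPF6.2 (AT2G26690), of the nitrate and peptide transporter family, had 6.62, 6.56 and 6.70 in mutant roots on IBA, 5.50, 5.49 and 5.89 in mutant roots on DMSO, 6.34, 6.37 and 6.57 in Col-0 roots on IBA and 5.81, 5.78 and 5.60 in Col-0 roots on DMSO. It rose by 1.00 (SE 0.11) in the mutant and 0.70 (SE 0.11) in Col-0. AT4G00910, of the aluminium-activated malate transporters, anion channels of the plasma membrane and vacuole, rose by 0.95 (SE 0.17) in the mutant and 0.69 (SE 0.17) in Col-0 with Col-0 IBA arrays between 3.62 and 4.49. AT2G36950 and AT4G27590 carry heavy-metal-associated domains; AT2G36950 rose by 0.95 (SE 0.11) in the mutant and 0.88 (SE 0.11) in Col-0. The 13 loci with no role given had a median response of 0.94 in the mutant, from 0.62 to 1.42, and of 0.92 in Col-0, from 0.63 to 2.28. AT5G12340, among these, had 5.37, 5.23 and 5.21 in mutant roots on IBA, 4.20, 4.20 and 4.10 in mutant roots on DMSO, 4.59, 5.23 and 5.33 in Col-0 roots on IBA and 3.95, 3.79 and 3.94 in Col-0 roots on DMSO. Its lowest Col-0 IBA array stood apart from the other two, and the rise was 1.104 (SE 0.14) in the mutant and 1.15 (SE 0.14) in Col-0. AT5G47740 rose by 1.05 (SE 0.12) in the mutant and 1.29 (SE 0.12) in Col-0.

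Just inside the mutant threshold were AT1G17960 at 0.61 and AT4G27590 at 0.62, and just outside were AT3G44190 at 0.60 (0.5997) and AT1G33110 at 0.59. Just inside the Col-0 threshold were AT1G51400 and AT3G16350, each at 0.63, and just outside were AT5G48570 at 0.60 (0.5995) and AT2G15830 at 0.58. On DMSO, AT3G16800 and AT2G47710 lay 0.40 above Col-0 in the mutant, and AT5G13200 and AT1G72490 were outside at 0.42. AT1G76470 and AT4G38410 lay furthest below Col-0, at -0.25 and -0.14, and AT2G27830 was outside at -0.48. For the level, AT4G09760 of the choline kinases (4.14) and AT1G51890 (4.17) were inside, and AT4G24480 (3.81) and AT2G28690 (3.69) were outside. With a response threshold of 0.5 the rule found 94 loci and with 0.8 it found 21, and with a window of 0.2 on DMSO it found 23. With the arrays scaled to the control transcripts it found 31 loci, of which 17 were among the 46.

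The difference of responses, the mutant change minus the Col-0 change, asks whether the rise was as large without IBR1, IBR3 and IBR10. The rule set no limit on this contrast but fixed both of its parts at 0.6 or more, so the counts describe the chosen loci. Its median over the loci was -0.10, against 0.02 over all genes, with 13 positive and 33 negative values. By limma the response was called larger in the mutant for 0 loci (2 at an unadjusted p under 0.05), beside 2.95% of all probe sets, and smaller in the mutant for 5 (7 unadjusted), beside 3.54%. At an unadjusted 95% interval, 2 loci lay above 0, 7 lay below 0 and 37 held 0. For 24 loci the interval lay within 0.6 log2 units on either side of 0, and for 9 within 0.4. The median full width of the interval was 0.73.

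The largest shortfalls were at AT3G19200 and AT5G66780, neither of which has a role given here. AT3G19200 had 6.22, 5.87 and 5.92 in mutant roots on IBA, 4.87, 4.74 and 4.83 in mutant roots on DMSO, 7.32, 6.81 and 6.89 in Col-0 roots on IBA and 4.96, 4.65 and 4.58 in Col-0 roots on DMSO. The DMSO arrays of the genotypes overlapped, whereas on IBA every mutant array lay below every Col-0 array. Its rise was 1.19 (SE 0.14) in the mutant and 2.28 (SE 0.14) in Col-0, a difference of -1.09 (SE 0.20, adjusted p = 0.00338) with a 95% interval of -1.51 to -0.67. AT5G66780 had 4.49, 4.63 and 4.47 in mutant roots on IBA, 3.47, 3.598 and 3.47 in mutant roots on DMSO, 5.39, 5.37 and 5.56 in Col-0 roots on IBA and 3.55, 3.46 and 3.25 in Col-0 roots on DMSO. Here too the genotypes overlapped on DMSO and were apart on IBA, with a rise of 1.02 (SE 0.09) in the mutant and 2.02 (SE 0.09) in Col-0 and a difference of -0.997 (SE 0.13, adjusted p = 0.000274). Both remained past 1 log2 unit in the mutant, that is a 2.28-fold and a 2.03-fold rise against 4.85-fold and 4.04-fold in Col-0.

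AT5G43450, another oxygenase of the 2-oxoglutarate and iron dependent family, had 4.16, 3.91 and 4.15 in mutant roots on IBA, 3.66, 3.14 and 3.37 in mutant roots on DMSO, 5.24, 4.49 and 5.06 in Col-0 roots on IBA and 3.13, 3.33 and 3.42 in Col-0 roots on DMSO. The mutant kept the smallest share of the Col-0 response of any member, a ratio of 0.42, and the difference was -0.95 (SE 0.24, adjusted p = 0.0304). That call ended in 10 of 18 alternatives, among them leaving out mutant DMSO replicate 1 (-0.82, adjusted p = 0.0787). AT4G27590, with its heavy-metal-associated domain, had 4.46, 4.57 and 4.43 in the mutant against 5.33, 4.94 and 5.04 in Col-0 on IBA, and the ranges were apart. Its rise was 0.62 (SE 0.11) in the mutant and 1.29 (SE 0.11) in Col-0, a difference of -0.67 (SE 0.15, adjusted p = 0.0162). AT2G47890, a B-box zinc finger protein named here because it passed the call, had 8.12, 8.09 and 8.13 in mutant roots on IBA, 7.54, 7.52 and 7.27 in mutant roots on DMSO, 8.07, 8.19 and 8.36 in Col-0 roots on IBA and 7.17, 7.04 and 6.97 in Col-0 roots on DMSO. On IBA the genotypes overlapped, and its difference of -0.48 (SE 0.13, adjusted p = 0.0481) went with mutant arrays that were higher on DMSO. Its call held in 6 of 18 alternatives, and with the control transcripts, a scaling that moves the difference of every probe set alike, its value was 0.06 (adjusted p = 0.816).

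With that scaling all 5 calls ended, 13 loci were called larger in the mutant and 0 smaller (1 at an unadjusted p under 0.05), while the median difference of all probe sets moved to 0.55. Relative to that median the loci were at -0.11, a value that a shift shared by all probe sets cannot change. AT3G10020, with no role given, and the universal stress protein AT2G47710 missed the threshold at -0.53 (SE 0.17, adjusted p = 0.0843) and -0.50 (SE 0.14, adjusted p = 0.0557). At the other end, AT1G70420, with no role given, had 4.78, 4.67 and 5.07 in mutant roots on IBA, 3.46, 3.34 and 3.47 in mutant roots on DMSO, 4.06, 4.09 and 4.41 in Col-0 roots on IBA and 3.54, 3.26 and 3.02 in Col-0 roots on DMSO. The rise was 1.42 (SE 0.14) in the mutant and 0.92 (SE 0.14) in Col-0, and the difference of 0.50 (SE 0.19, adjusted p = 0.168) was not called. The AP2/ERF gene AT4G39780 had a difference of 0.46 (SE 0.17, adjusted p = 0.152) and was called without Col-0 IBA replicate 3 (0.59, adjusted p = 0.0399). AT4G39675, NPF6.2 and AT4G00910 followed at 0.37, 0.30 and 0.26, with intervals of -0.37 to 1.11, -0.03 to 0.64 and -0.26 to 0.78.

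**Figure D4:**
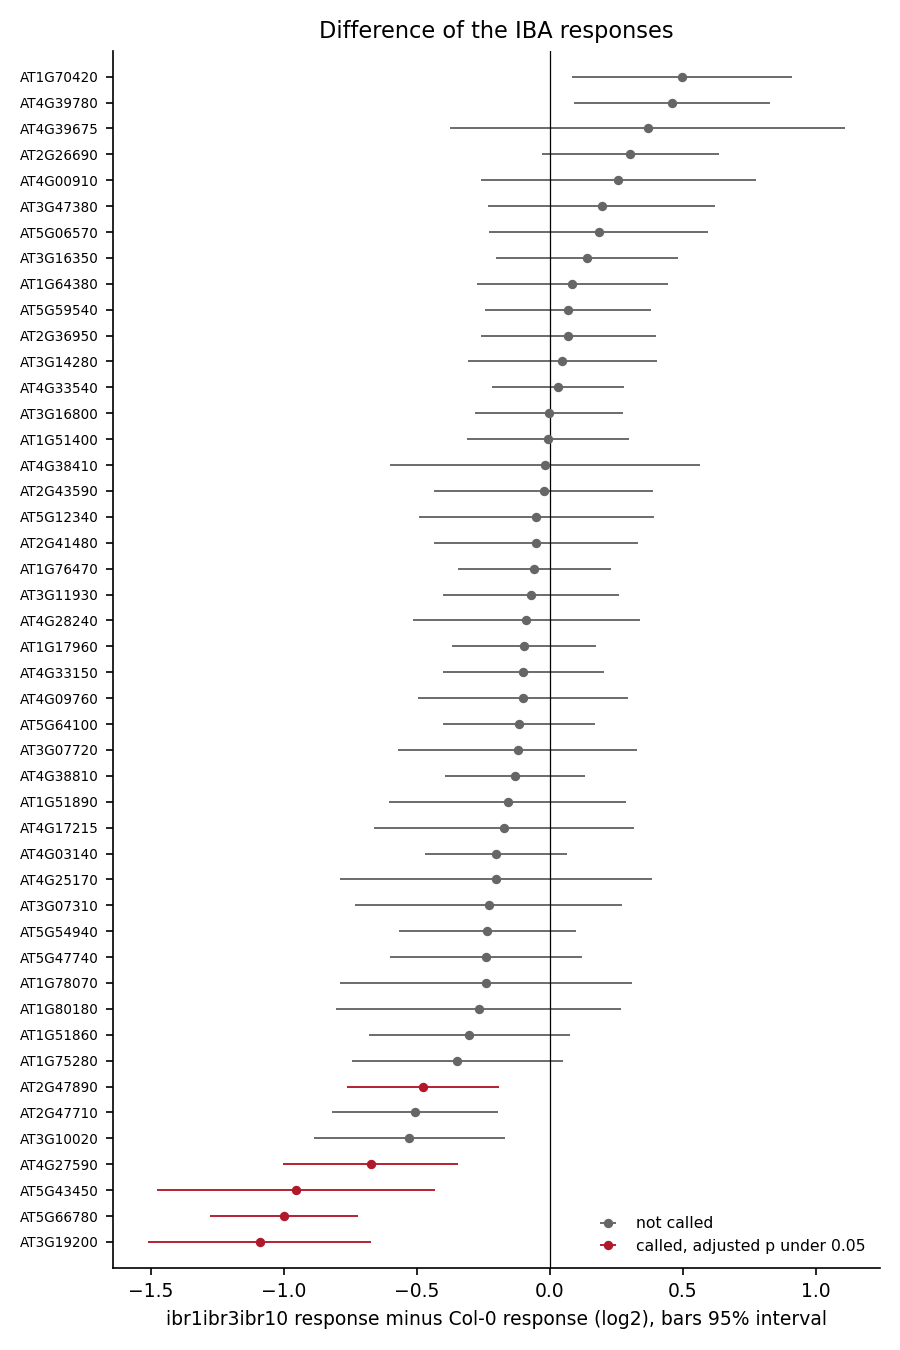
Difference of the IBA responses, ibr1ibr3ibr10 minus Col-0 (horizontal axis, log2), for the 46 loci (rows), with unadjusted 95% intervals from the limma fit; red marks the 5 loci called at an adjusted p under 0.05. The values run from 0.50 at AT1G70420 to -1.09 at AT3G19200, and 37 intervals hold 0.

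On IBA itself the mutant was called higher than Col-0 at 4 loci, beside 5.95% of all probe sets, and lower at 4, beside 5.08%. The 4 higher were AT1G70420 at 0.65 (SE 0.14, adjusted p = 0.00548), AT3G47380 at 0.56 (SE 0.14, adjusted p = 0.0169), AT3G16800 at 0.39 (SE 0.09, adjusted p = 0.0108) and AT5G59540 at 0.35 (SE 0.10, adjusted p = 0.0422). AT1G70420 had 4.78, 4.67 and 5.07 in the mutant against 4.06, 4.09 and 4.41 in Col-0, with no overlap. The 4 lower were AT3G19200 at -1.004 (SE 0.14, adjusted p = 0.000189), AT5G66780 at -0.91 (SE 0.09, adjusted p = 1.05e-05), AT5G43450 at -0.86 (SE 0.17, adjusted p = 0.00409) and AT4G27590 at -0.62 (SE 0.11, adjusted p = 0.0014). Every mutant IBA array lay above every Col-0 IBA array at 8 loci, beside 12.5% of all probe sets, and below at 7, beside 11.6%, and at 31 loci the ranges overlapped. The count of 8 called loci was 13 without Col-0 IBA replicate 3, 5 without Col-0 IBA replicate 2 and 35 with the arrays scaled to the control transcripts.

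On DMSO the mutant value was higher at 39 of the 46 loci and lower at 7, with a median of 0.19. The limit of 0.4 was part of the choice, and 3 loci were called higher, AT3G16800, AT5G64100 and AT2G47890, beside 1.82% of all probe sets. The share of loci higher in the mutant, 84.8%, compared with 46.4% of the 6588 bare loci in the same level and window. Of the 154 loci raised in Col-0 with a mutant change between 0 and 0.6, 81.2% were higher in the mutant on DMSO, and of the 30 with a mutant change below 0, 43.3% were. The Col-0 DMSO arrays enter both this value and the Col-0 response, so the 2 are not independent.

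The same measure was read in arrays that the choice did not use. When the rule was applied without 1 replicate number, it found 69 loci without replicate 1, 44 without replicate 2 and 39 without replicate 3, of which 38, 33 and 31 were among the 46. In the left-out replicate the median change of those loci was 0.61, 0.84 and 0.85 in the mutant and 0.74, 1.00 and 1.16 in Col-0. Over all genes the medians in the same arrays lay between -0.04 and 0.01 in the mutant and between -0.10 and 0.00 in Col-0. The change in the left-out replicate was above 0 in the mutant at 68 of 69, 44 of 44 and 39 of 39 loci, and in Col-0 at all of them. The mutant change reached 0.6 again at 37, 32 and 32 loci, beside 1.72%, 2.22% and 2.40% of all genes. The Col-0 change did so at 46, 37 and 35 loci, beside 3.61%, 5.13% and 5.34%. Both changes reached 0.6 again at 25, 28 and 30 loci, for which the share over all genes is not given. On the arrays that made the choice, the medians were 0.84, 0.80 and 0.83 in the mutant and 1.04, 0.96 and 0.83 in Col-0. In the choices 20 loci were found each time, all among the 46, and 87 were found in 1 or more of them. Arrays were left out by replicate number, whether or not same-numbered arrays belong together, and leaving out another combination was not run.

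**Figure D5:**
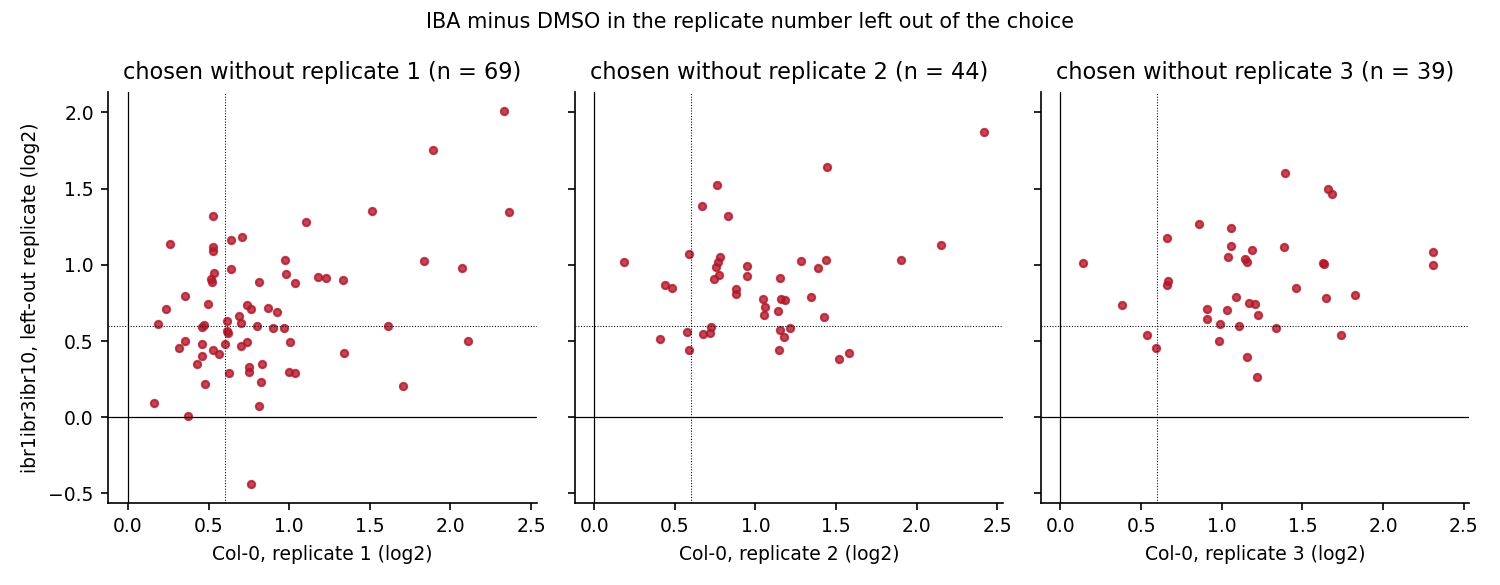
Change on IBA in the replicate number left out of the choice, Col-0 (horizontal axis, log2) against ibr1ibr3ibr10 (vertical axis, log2), for the 69, 44 and 39 loci chosen on the other arrays; solid lines mark 0 and dotted lines 0.6. All points lie right of 0, and all but 1 lie above 0.

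The 46 loci were 20% of the 230 bare loci that were raised by at least 0.6 in Col-0 in the same level and window. Another 154, or 67.0%, had a mutant change between 0 and 0.6, with a median of 0.32 in the mutant and 0.79 in Col-0. The remaining 30, or 13.0%, had a mutant change below 0. The median DMSO signals of the 3 sets of loci were 5.37, 5.52 and 5.06. Outside the window, 79 bare loci were raised in both genotypes but stood more than 0.4 higher in the mutant on DMSO, and 1 stood more than 0.4 lower. Within the same window and level, a further 46 loci were raised by at least 0.6 in the mutant but by less in Col-0. Genes with a symbol that met the same thresholds numbered 12. They included MGL (methionine gamma-lyase, which breaks down methionine), at 1.097 in the mutant and 0.63 in Col-0, and IVD (isovaleryl-CoA dehydrogenase, of leucine breakdown), at 0.71 and 0.66. LEA4-5, of the late embryogenesis abundant proteins, was at 1.32 and 1.06, and the glucosyltransferase gene UGT73B5 was at 0.69 and 0.86, the mutant first in each case.

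The loci were spread over the genome, with 10, 6, 9, 13 and 8 on chromosomes 1 to 5, where 3068, 1938, 2420, 1699 and 2673 of the bare loci lie. In the RefSeq gene order of TAIR10.1, the receptor kinase genes AT1G51860 and AT1G51890 had 2 genes between them, and no other pair of members was closer than 13 genes. Of the 92 direct neighbours 40 were measured, and 3 of these were called higher on IBA in both genotypes, or 7.50%, beside 3.40% of the 13280 genes with a locus. They were AT5G59530, next to AT5G59540, with a change of 0.57 in the mutant and 1.23 in Col-0, AT1G78060, next to AT1G78070, with 0.28 and 0.86, and AT4G33550, next to AT4G33540, with 0.72 and 0.83. Near-identical copies can share probes, and this was not tested.

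None of the 46 loci was on the 6 pathway lists, whose genes show what else responded in these roots. The rule took only genes named by a bare locus code, so list genes with a symbol could not be members. IVD and UGT73B5 met the same thresholds and were outside the 46 loci because they have a symbol. For the list counts, 5.49% of all probe sets were called higher on IBA in the mutant and 12.1% in Col-0. In the difference of responses 3.54% were called smaller in the mutant. Of 12 measured genes of starvation and autophagy, 5 rose in the mutant and 11 in Col-0, and 0 fell in either by limma (0 at an unadjusted p under 0.05), with medians of 0.34 and 0.50, and 3 were called smaller in the mutant in the difference of responses. That count of 3 was 0 without Col-0 IBA replicate 2 or Col-0 DMSO replicate 3, and 1 without mutant DMSO replicate 1 or Col-0 DMSO replicate 2. It was 2 with a replicate block and when Col-0 IBA replicate 3, mutant IBA replicate 1 or 3, or mutant DMSO replicate 2 or 3 was left out. With the control transcripts it was 0, with 1 larger in the mutant. The named ones are IVD, at 0.71 (SE 0.07) in the mutant and 0.66 (SE 0.07) in Col-0, MCCA (methylcrotonyl-CoA carboxylase, also of leucine breakdown), at 0.43 (SE 0.08) in the mutant and 0.52 (SE 0.08) in Col-0, and the autophagy genes ATG8H, at 0.45 (SE 0.09) in the mutant and 0.72 (SE 0.09) in Col-0, and ATG8F, at 0.44 (SE 0.10) in the mutant and 1.04 (SE 0.10) in Col-0. With the arrays scaled to the control transcripts 3 rose in the mutant and 2 in Col-0, and IVD and MCCA were at 0.22 and 0.08 in Col-0, no longer called.

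Of 9 measured genes of xenobiotic detoxification, 4 rose and 1 fell in the mutant, and 5 rose and 1 fell in Col-0, with medians of 0.01 and 0.63. Those that rose in both, GSTU22, GSTU25, UGT73B4 and UGT73B5, encode glutathione transferases and glucosyltransferases, which attach a soluble group to foreign and internal compounds. UGT73B5 was at 0.69 (SE 0.08) in the mutant and 0.86 (SE 0.08) in Col-0, UGT73B4 at 0.62 (SE 0.09) in the mutant and 0.84 (SE 0.09) in Col-0 and GSTU25 at 0.56 (SE 0.07) in the mutant and 0.63 (SE 0.07) in Col-0. GSTU20 went opposite ways, at -1.05 (SE 0.14) in the mutant and 0.68 (SE 0.14) in Col-0. With the control transcripts 2 rose in Col-0, and GSTU25 was at 0.19 there, not called. Probe sets called lower made up 3.87% of all in the mutant and 11.4% in Col-0.

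Of 9 measured early auxin response genes, 0 rose (0 at an unadjusted p under 0.05) and 4 fell in the mutant by limma, whereas 8 rose and 1 fell in Col-0, with medians of -0.35 and 1.31, and 8 were called smaller in the mutant. GH3.5, which conjugates IAA to amino acids, was at -1.11 (SE 0.11) in the mutant and 2.32 (SE 0.11) in Col-0, and LBD16, a regulator of lateral root initiation, was at -0.77 (SE 0.10) in the mutant and 1.47 (SE 0.10) in Col-0. LBD29 and HAT2 also fell in the mutant, by 0.56 and 0.35. In Col-0 LBD29 rose by 1.32, whereas HAT2 fell there too, by 0.34 (limma adjusted p = 0.00644). The difference of responses of HAT2 was -0.005 (SE 0.11, limma adjusted p = 0.989). Both calls in the mutant ended with the arrays scaled to the control transcripts, the LBD29 call also with a replicate block and in several leave-one-out fits. Of 8 measured genes of mitochondrial stress, 2 rose and 3 fell in the mutant and as many in Col-0, with medians of -0.20 and -0.07. FDH, the mitochondrial formate dehydrogenase, was at 1.98 (SE 0.15) in the mutant and 1.45 (SE 0.15) in Col-0, whereas UPOX, at -0.99 (SE 0.12) in the mutant and -0.07 (SE 0.12) in Col-0, and NDB4, at -0.81 (SE 0.12) in the mutant and -0.43 (SE 0.12) in Col-0, were lower on IBA than on DMSO in the mutant. AT12CYS-2 was at -0.94 in the mutant and -0.46 in Col-0, where its adjusted p was 0.0499 and its call ended in most leave-one-out fits. On DMSO the mutant stood above Col-0 by 1.12 at UPOX, 0.93 at NDB4 and 2.42 at AT12CYS-2, all called. On IBA the mutant stood above Col-0 by 0.20 at UPOX, which was not called, 0.56 at NDB4 and 1.94 at AT12CYS-2. The 3 falls in Col-0 became 1 without Col-0 IBA replicate 2, Col-0 DMSO replicate 2 or Col-0 DMSO replicate 3, and 6 with the control transcripts. The 2 rises in the mutant became 1 with the control transcripts, with the compared groups alone and without any of mutant IBA replicates 1, 2 and 3 or mutant DMSO replicates 1 and 3, where NDB2 lost its call. Of the list for peroxisomal beta-oxidation and import 3 genes were measured; ICL (isocitrate lyase) rose in the mutant, at 0.70 (SE 0.20) in the mutant and 0.56 (SE 0.20) in Col-0, and AIM1 rose in Col-0, at 0.07 (SE 0.08) in the mutant and 0.38 (SE 0.08) in Col-0, while PEX4 was at -0.03 and -0.08. The ICL call ended with the compared groups alone (adjusted p = 0.0561) and without any of mutant IBA replicates 1, 2 and 3 or mutant DMSO replicates 2 and 3 (adjusted p of 0.06 to 0.154). With the control transcripts AIM1 was at -0.06 in Col-0 (adjusted p = 0.729), its call ended and its sign turned. Of 3 measured genes of heat and protein folding stress, 0 were called in the mutant, where 2 fell at an unadjusted p under 0.05 by limma, and only BZIP60 was called in Col-0, at -0.39 (SE 0.07).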

How the data were processed

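Values are log2 expression of probe sets as deposited. The authors made them by RMA, with affy 1.40.0 named in the submitters' processing notes. RMA corrects background, equalises array distributions and summarises each probe set, and it hides a shift shared by most transcripts. The joint normalization of arrays and the genome build are not given in the sources used here. With 3 arrays per group the precision is limited, and arrays carry no sequencing depth.

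The 64 Affymetrix controls among 22810 probe sets were not tested. The platform annotation names 1 gene for 13513 of the rest, several for 503 and none for 8730, and only the first kind was named. Symbols were checked through Entrez identifiers against RefSeq (TAIR10.1), which changed 0 symbols, and 77 identifiers were not in it. The probe set with the highest mean stood for a gene. Group means were fitted over all 12 arrays with limma 3.58.1 in R 4.3.3 (8 residual and 5.62 prior degrees of freedom), p-values were two-sided and adjusted by Benjamini-Hochberg over 22746 probe sets within a contrast, and an adjusted p under 0.05 was called. The fit was tested on simulated data.

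The members, the pathway and marker lists and the alternatives were chosen with earlier results of these data known. The rule for named members took the 10 with the highest smaller-of-2 response, the 5 most negative and 5 most positive differences of responses, the 5 with the highest mean, the 2 on each side of every threshold and the 3 leading ones of each class of product names, and of each pathway list up to 4 genes. The annotation held no product names and placed 44 of 46 members in the unknown class, so protein families are given from general knowledge, and members named for them were chosen after their values were seen. The lists were xenobiotic detoxification, mitochondrial stress, early auxin response, peroxisomal beta-oxidation and import, heat and protein folding stress, and starvation and autophagy. Alternative settings scaled the arrays to the poly-A control transcripts, to their medians or by quantiles, or used a block for the replicate number, eBayes trend and robust, a filter on dim probe sets, the compared groups alone, other thresholds and leaving out each array. Promoter motifs were not analysed here.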

Additional observations from a re-analysis of the deposited data

Results flagged for a closer look

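The IBA response differed between the mutant and Col-0 at 5 of the 46 loci, by the test of the difference itself over all probe sets (limma, adjusted p under 0.05, 3 arrays per group). Over all probe sets 3.54% were called smaller and 2.95% larger in the mutant. The group means in this difference also chose the loci, so the count of 5 only describes them. The difference, mutant minus Col-0, was -1.09 at AT3G19200, -0.997 at AT5G66780, -0.95 at AT5G43450, -0.67 at AT4G27590 and -0.48 at AT2G47890. All 5 were smaller in the mutant, and each still rose by at least 0.6 there, as the choice required. At AT3G19200, AT5G66780, AT5G43450 and AT4G27590 every mutant IBA array lay below every Col-0 IBA array, and at AT2G47890 the IBA arrays of the genotypes overlapped. The AT5G43450 call ended in 10 of 18 alternatives, the AT2G47890 call held in 6 of 18, and all 5 calls ended with the arrays scaled to the control transcripts. Groups of 3 arrays are too small for a search for single outlying arrays.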

How the results depend on the processing

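The choice found 94 loci with a response threshold of 0.5, 21 with 0.8 and 23 with a window of 0.2, and between 37 and 66 when an array was left out. Loci called in both responses numbered 32 with the control transcripts and between 40 and 46 without an array. The 5 called differences of responses became 3 with median centring, 13 with the control transcripts (all larger in the mutant) and 2 at an adjusted p under 0.01, and between 3 and 5 without an array. That scaling moved the median difference of all probe sets to 0.55, against 0.01, and the members above 0 to 42, against 13, and AT2G47890 turned sign with them, at 0.0617 (adjusted p = 0.816). The 8 loci called between genotypes on IBA became 35 with the control transcripts, 13 with eBayes trend and robust and 5 at an adjusted p under 0.01, and between 5 and 13 without an array. With a replicate block the counts were 46 for both responses, 5 for the difference and 8 between genotypes on IBA, and AT2G47890 lost its call (adjusted p = 0.077) while AT3G10020 gained one (adjusted p = 0.0321). Over all probe sets, same-numbered arrays deviated from their group means with correlations of -0.21 to 0.17. At the 46 loci, replicate 1 was the highest DMSO array at 25 in the mutant and at 31 in Col-0. These values do not settle whether same-numbered arrays belong together. The causes were not tested. The intervals at 3 arrays per group had a median width of 0.73 log2 units, and the search for promoter motifs was not run.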
